A study of Mus musculus with 30 samples.

Results

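The 58 nuclear-encoded subunits of respiratory chain complexes I to IV were followed through thyroids of C57BL/6 mice. The members were the protein-coding genes whose symbols name a subunit: 36 of complex I (Ndufa, Ndufb, Ndufc, Ndufs and Ndufv genes with a number), 4 of complex II (Sdha to Sdhd), 8 of complex III (Uqcr genes) and 10 of complex IV (Cox genes). They are 58 of the 50686 genes in the count files, and the rule uses symbols only. Ndufa4 is kept with complex I by its symbol, although its protein is now placed in complex IV, and Cyc1, Ndufab1 and the subunits of the mitochondrial genome fall outside the rule.

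Messenger RNA of 30 thyroids, selected by its poly(A) tail, was sequenced and counted per gene in 10 groups of 3 libraries. In 8 groups, FAD4T males, wild-type males, FAD4T females and wild-type females were each taken at 2 and 8 months. The ageing set, as taken here, holds males of 18 months, wild type too, and a further set of 2-month males. Its young males carry the title numbers 4 to 6 and are named here by them, whereas the wild-type males of 2 months beside the FAD4T males carry the numbers 1 to 3. The labels do not say which set of young males belongs with the 18-month males. Numbers 4 to 6 were taken as their controls because the design text lists that set apart. All animals are C57BL/6. The labels do not say what FAD4T stands for, which alleles or promoter these mice carry, or whether any gene was deleted. The design text counts 3 mice per group and gives no litters or dissection days, so each p-value reflects only how far these animals differed.

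The respiratory chain of the inner mitochondrial membrane passes electrons from NADH (complex I) and succinate (complex II) through ubiquinone to complex III, cytochrome c and, at complex IV, oxygen, and pumps protons that drive ATP synthase. Most subunits are encoded in the nucleus, made in the cytosol and imported, and some complex IV subunits have a ubiquitous isoform and another for heart and skeletal muscle. In the thyroid follicle, mitochondria supply ATP, and the tissue around the gland includes muscle and brown fat, which are rich in mitochondria.

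Every library held 14083958 to 20256049 counts. Follicle genes, the defining markers of the labelled tissue, were abundant in all libraries. The mean of log2(CPM + 1) over 10 of them ran from 7.39 to 9.05, where CPM stands for counts scaled to a fixed library total with TMM factors over all libraries. The same measure over 12 skeletal muscle markers ran from 1.53 in a FAD4T female of 8 months to 10.7 in 2-month male 6. Over 9 thymocyte markers it was 3.13 to 5.14 in 5 FAD4T libraries (males 2 and 3 and females 1 and 2 of 2 months, and male 1 of 8 months) and at most 2.00 in the other 25. These are bulk tissue libraries, in which fewer cells of a type and less RNA per cell cannot be told apart.

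The stretches before the starts of 4 members are shown first. These genes mark the extremes of the comparison of 18-month males with 2-month males 4 to 6. Cox6a1 and Ndufs8 fell there with p-values among the smallest, Sdhd fell least among the called genes, and Sdha did not pass the test. Against 2-month males 1 to 3 none of the 4 was called by edgeR. Log2 fold changes were then -0.44 for Cox6a1, -0.23 for Ndufs8, -0.22 for Sdhd and 0.155 for Sdha. Each stretch runs 5′ to 3′ on the gene's own strand (minus for all 4). It is taken from RefSeq, build GRCm38.p6, up to 250 bases before the RefSeq start without any base that the counted gene model holds. Capitals mark matches to the motifs named below.
Cox6a1, chr5:115348982-115349208: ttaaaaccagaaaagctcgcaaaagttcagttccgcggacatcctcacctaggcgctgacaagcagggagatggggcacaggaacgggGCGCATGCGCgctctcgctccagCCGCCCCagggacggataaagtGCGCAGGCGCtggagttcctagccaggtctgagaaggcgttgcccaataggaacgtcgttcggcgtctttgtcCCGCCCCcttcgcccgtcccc
Ndufs8, chr19:3912775-3913024: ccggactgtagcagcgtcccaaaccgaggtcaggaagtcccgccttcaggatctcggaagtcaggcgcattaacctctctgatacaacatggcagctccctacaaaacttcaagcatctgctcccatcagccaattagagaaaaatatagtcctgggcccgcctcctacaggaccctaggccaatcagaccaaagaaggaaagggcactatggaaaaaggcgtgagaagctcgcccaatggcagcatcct
Sdha, chr13:74350281-74350490: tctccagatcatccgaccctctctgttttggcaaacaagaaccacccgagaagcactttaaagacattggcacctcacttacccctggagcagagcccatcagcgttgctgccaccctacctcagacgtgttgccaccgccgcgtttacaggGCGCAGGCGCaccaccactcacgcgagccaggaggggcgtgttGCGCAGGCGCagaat
Sdhd, chr9:50603850-50604099: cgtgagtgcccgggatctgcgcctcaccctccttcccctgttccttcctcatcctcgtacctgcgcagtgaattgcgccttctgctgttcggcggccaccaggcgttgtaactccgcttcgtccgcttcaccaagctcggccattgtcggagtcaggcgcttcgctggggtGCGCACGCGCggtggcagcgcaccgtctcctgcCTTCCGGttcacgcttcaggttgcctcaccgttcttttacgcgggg

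Promoter windows of 300 bases, 250 before to 50 after the start, were in the RefSeq table for 48 of the 58 members. Searched on both strands were the nuclear respiratory factor NRF1 motif (GCGCA and GCGC with any base between), the GABP (ETS) motif CCGGAAG, the SP1 motif GGGGCGG, the ESRRA motif TNAAGGTCA and the YY1 motif (AANATGG directly followed by CGGC). A gene symbol was counted if any of its windows held a match. The NRF1 motif was counted for 22.9% of the members (11 of 48) and 5.19% of all 27025 symbols with windows, expressed here or not. The GABP motif was likewise in 11 members (22.9%), against 9.93% of all. The YY1 motif was in 4 (8.33% against 1.17%), the ESRRA motif in 2 (4.17% against 1.43%) and the SP1 motif in 13 (27.1% against 25.5%). Among the printed stretches, Cox6a1 holds 2 NRF1 and 2 SP1 matches, Sdha 2 NRF1 matches and Sdhd 1 NRF1 and 1 GABP match, none overlapping another, and Ndufs8 holds none. A match describes letters and does not show binding, and its absence says nothing of the factor. The genes called most clearly and those that were not thus both include promoters with NRF1 matches.

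All 58 members passed the filter on low counts in every fit. Their median level over the 30 libraries ran from 13.4 CPM (Ndufb2) to 397 CPM (Sdha). Per kilobase of annotated exon, which lowers genes with many long annotated transcripts such as Ndufb2, the median over libraries was highest for Cox8a, at 379 CPM per kb, and lowest for Ndufb2, at 2.39. In complex I the highest was Ndufa1 (228 CPM per kb), a small membrane subunit needed for assembly. In complex II Sdha, which carries the flavin that oxidises succinate, was highest (102) and Sdhb, the iron-sulphur subunit, lowest (44.7). In complex III Uqcrb was highest (162) and the core protein gene Uqcrc1 lowest (44.3), and in complex IV the lowest was Cox5a (32.2). Together the members took 0.492% to 1.21% of a library's counts.

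The members did not vary evenly over the 10 groups. In 53 of 58 the highest group mean was that of the 2-month males numbered 4 to 6, and the lowest was that of the FAD4T females of 8 months in 30 and of the 18-month males in 15. The ratio of highest to lowest group mean had a median of 2.41. It was smallest for Ndufs1, which encodes the largest iron-sulphur subunit of complex I (1.26, from 93.5 to 118 CPM), and largest for Ndufs6, an accessory subunit (3.56, from 32.6 to 116 CPM). Within groups the median coefficient of variation was 14.0%. The ratio takes the highest and lowest of 10 group means for each gene, so it is raised by that choice. It cannot be weighed against the spread between mice.

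**Figure D1:**
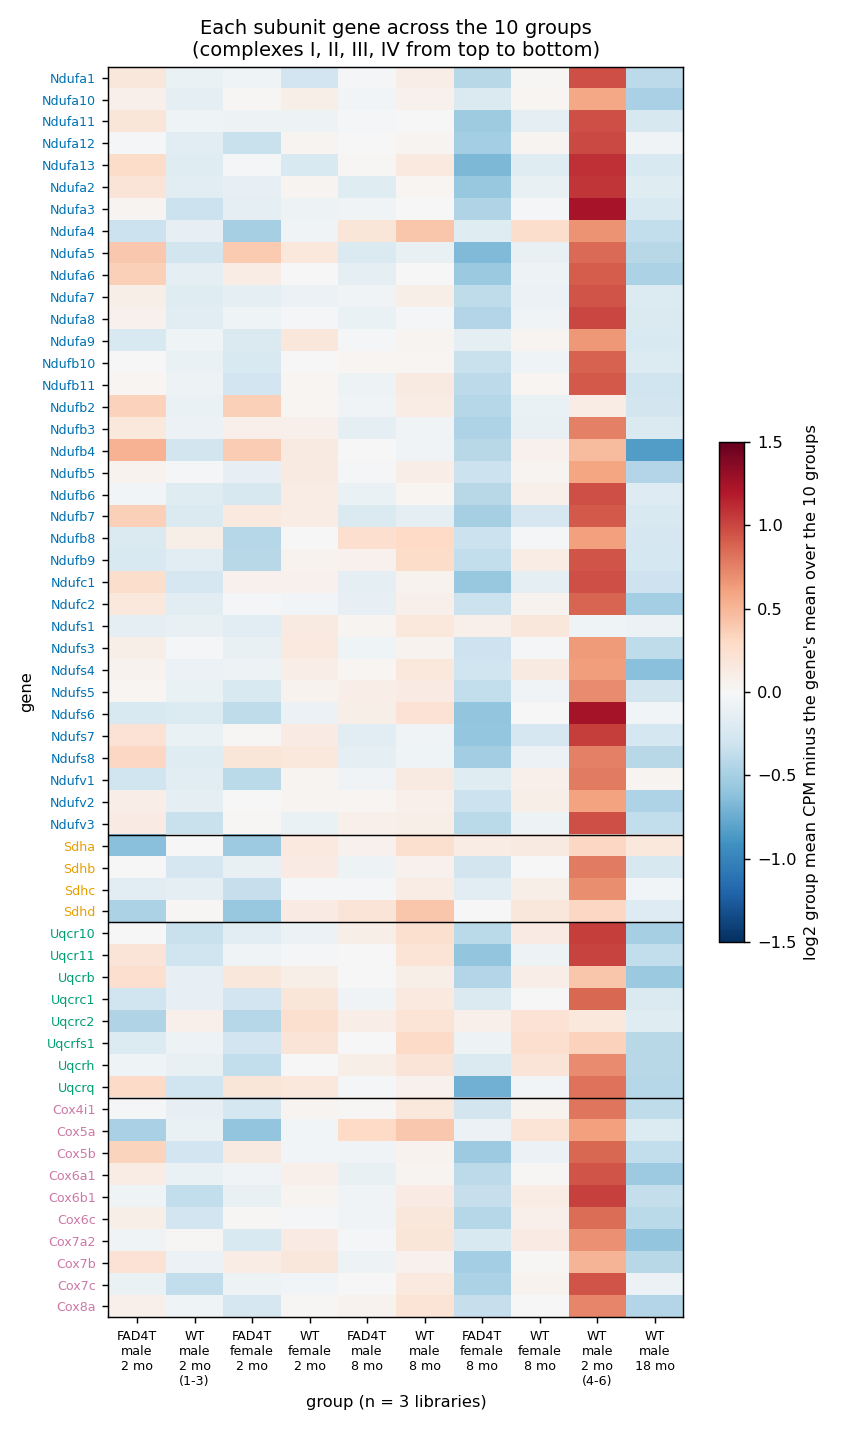
Colour shows log2 of each group mean CPM minus the gene's mean over the 10 groups (n = 3 libraries each), genes in rows by complex, with 1 member not shown. The column of 2-month males 4 to 6 is red in nearly every row, and 53 of the 58 members had their highest group mean there, while the Ndufs1, Ndufb2 and Uqcrc2 rows stay pale in it.

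Whether subunit transcripts differ between a young and an old gland was asked in wild-type males, 18 months against 2 months numbered 4 to 6. Of the 58 members, 54 were called lower at 18 months (edgeR quasi-likelihood test, Benjamini-Hochberg adjusted p under 0.05) and 0 higher, where 18.8% of 16283 genes were called lower and 17.1% higher. The log2 fold change was below 0 in 58 of 58, with a median of -1.19 (range -1.58 to -0.07) against -0.01 over all genes. The fall covered 34 of 36 genes of complex I (median -1.20), 3 of 4 of complex II (-0.66), 7 of 8 of complex III (-1.14) and 10 of 10 of complex IV (-1.24). In 55 members every 18-month library was below every 2-month library, against 26.4% of all genes lower and 24.9% higher. Before adjustment 55 members had p under 0.05, all lower, against 24% of all genes lower and 22.4% higher.

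Ndufs8 (chr19:3908870-3912717, GRCm38), an iron-sulphur subunit of the electron path of complex I, had the smallest p. Its level was 109, 117 and 134 CPM at 2 months and 54.2, 54.3 and 51.8 CPM at 18 months. The groups were far apart, and the 18-month mice differed little among themselves. Ndufs8 fell 2.31-fold (log2 -1.21 ± 0.12 SE, adjusted p = 0.000862, edgeR).

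Ndufs4, an accessory subunit whose loss in mice serves as a model of Leigh syndrome, fell by 1.29 on the log2 scale (adjusted p = 0.000981, edgeR). It was at 122, 126 and 163 CPM at 2 months and 54.6, 59.5 and 58.3 CPM at 18 months. Ndufc2, an accessory subunit of the membrane arm, went from 113, 147 and 166 CPM to 52.8, 55.7 and 54.7 CPM (log2 -1.42 ± 0.15 SE, adjusted p = 0.000981, edgeR). In each of these genes, all 3 old mice lay below all 3 young ones, and the young mice spread more widely.

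Cox6a1 (chr5:115345642-115348981), the ubiquitous isoform of complex IV subunit 6a, was at 321, 389 and 478 CPM at 2 months and 147, 129 and 148 CPM at 18 months. It fell 2.88-fold (log2 -1.52 ± 0.17 SE, adjusted p = 0.00104, edgeR). Cox4i1, the ubiquitous isoform of the largest nuclear-encoded subunit, went from 556, 605 and 756 CPM to 263, 294 and 288 CPM (log2 -1.22 ± 0.16 SE, adjusted p = 0.00145, edgeR). Young male 6 was the highest library for both genes, a position it also held for the members' mean.

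The catalytic cores did not all behave alike. Ndufv1, which binds NADH, fell by 0.77 on the log2 scale (adjusted p = 0.00448, edgeR). Ndufs1 was at 98.4, 83.9 and 118 CPM at 2 months and 71.1, 117 and 106 CPM at 18 months, so its groups overlapped, and it was not called (log2 -0.07 ± 0.21 SE, adjusted p = 0.831, edgeR). In complex III, Uqcrc1 fell by 1.12 (adjusted p = 0.00316, edgeR), and Uqcrfs1, the Rieske iron-sulphur protein, by 0.80 (adjusted p = 0.00626, edgeR). The other core protein gene, Uqcrc2, was lower in every old mouse but was not called (log2 -0.38 ± 0.14 SE, adjusted p = 0.0700, edgeR).

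Complex II, which also serves the citrate cycle and contains no mitochondrially encoded subunit, was split. Sdha (chr13:74322254-74350280) was at 487, 429 and 476 CPM at 2 months and 335, 451 and 462 CPM at 18 months. Its groups overlapped and it was not called (log2 -0.19 ± 0.16 SE, adjusted p = 0.390, edgeR). Sdhb went from 167, 148 and 236 CPM to 77.5, 100.1 and 94.1 CPM, a fall of 1.05 on the log2 scale (adjusted p = 0.00409, edgeR). The membrane anchors Sdhc and Sdhd (chr9:50596357-50603812) fell by 0.78 and 0.55 (adjusted p = 0.00407 and 0.0269, edgeR). The fourth member that was not called was Ndufb2 (log2 -0.43 ± 0.22 SE, adjusted p = 0.150, edgeR).

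The other genes of mitochondrial respiration were read as lists. Of 16 ATP synthase genes, 15 were called lower and 0 higher (median -0.99), with the lowest value in Atp5e, which went from 271 ± 94.0 to 92.6 ± 13.6 CPM (SD, n = 3; log2 -1.55, adjusted p = 0.00275, edgeR). The mitochondrial ribosome had 59 of 74 tested genes lower (median -0.64), such as Mrps21 (81.2 ± 19.8 to 32.6 ± 2.06 CPM, SD, n = 3; adjusted p = 0.00145, edgeR). Of 13 citrate cycle genes, 7 fell and 0 rose (median -0.66), and of 41 assembly factors tested, 16 fell and 0 rose (median -0.39). Each of these counts stands beside the 18.8% of all genes called lower.

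Of the 13 subunits encoded in the mitochondrial genome, 5 were called lower and 0 higher (median -0.84). Their counts are uncertain, since several have near-identical nuclear copies. mt-Nd4 went from 5123 ± 2095 to 2159 ± 458 CPM (SD, n = 3; adjusted p = 0.0145, edgeR), whereas mt-Co1, the most abundant, was at 12727 ± 2740 and 11629 ± 2615 CPM (adjusted p = 0.722, edgeR). Among 9 regulators of mitochondrial genes, Gabpa, the DNA-binding subunit of GABP, was called higher at 18 months (29.7 ± 2.52 to 48.1 ± 3.30 CPM, SD, n = 3; adjusted p = 0.00358, edgeR), and Esrra, a receptor that acts on respiratory genes, was called lower (73.1 ± 2.80 to 55.5 ± 6.36 CPM, SD, n = 3; adjusted p = 0.0302, edgeR). Nrf1 (adjusted p = 0.986), Tfam (0.824) and Ppargc1a (0.649) were not called by edgeR.

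Isoforms of the same subunits were read beside the members. Cox7a1, the heart and muscle counterpart of Cox7a2, was at 66.4, 56.4 and 165 CPM at 2 months and 14.5, 32.7 and 18.0 CPM at 18 months (log2 -2.17 ± 0.59 SE, adjusted p = 0.0448, edgeR). Cox8b, the counterpart of Cox8a in muscle and brown fat, went from 84.8, 77.3 and 180 CPM to 11.4, 38.1 and 22.8 CPM (log2 -2.27, adjusted p = 0.0435, edgeR). Cox6a2 was not called (log2 -1.63, adjusted p = 0.276, edgeR). The young males of this comparison exceeded the other wild-type males of 2 months in Cox7a1, Cox8b and Cox6a2 by more than these falls, as given below. The falls thus belong to this set of controls. A fall against the other young males is not shown, and neither is a loss with age. The ubiquitous counterparts Cox7a2, Cox8a and Cox6a1 were all called lower, by 1.32, 1.22 and 1.52. Cox4i2 and Ndufa4l2, isoforms known for induction at low oxygen, fell too (log2 -1.69 and -1.83, adjusted p = 0.00891 and 0.00237, edgeR).

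Markers of other tissue moved in the same comparison. Of 11 skeletal muscle markers tested, 0 were called by edgeR and 0 had p under 0.05 before adjustment (median -0.70), and their level was 8.58, 8.01 and 10.7 at 2 months and 7.65, 10.1 and 7.94 at 18 months. Of 6 white adipocyte markers, 4 were called lower (median -1.93), with levels of 7.20, 6.91 and 6.70 against 4.23, 5.19 and 5.49, and of 7 brown fat markers 2 were called lower (median -1.72). Of the thyroid follicle markers tested, 2 rose and 1 fell (median 0.09). With the muscle level as a covariate, 54 members were called lower (median -1.07), beside 19.4% of all genes lower and 17.8% higher. The part of the fat markers in the result was not tested. Marker changes at 18 months are given against numbers 4 to 6 only.

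The 2-month males of this comparison stood apart from the 2-month males numbered 1 to 3, which carry the same labels. The members' level, as mean log2(CPM + 1), was 7.21, 7.30 and 7.78 in numbers 4 to 6, and 6.61, 6.40 and 6.58 in numbers 1 to 3. The 18-month males were at 6.28, 6.49 and 6.39. The old mice thus overlapped numbers 1 to 3 and lay far below numbers 4 to 6. Levels in the remaining 21 libraries ran from 6.31 to 6.94, below each of numbers 4 to 6.

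**Figure D2:**
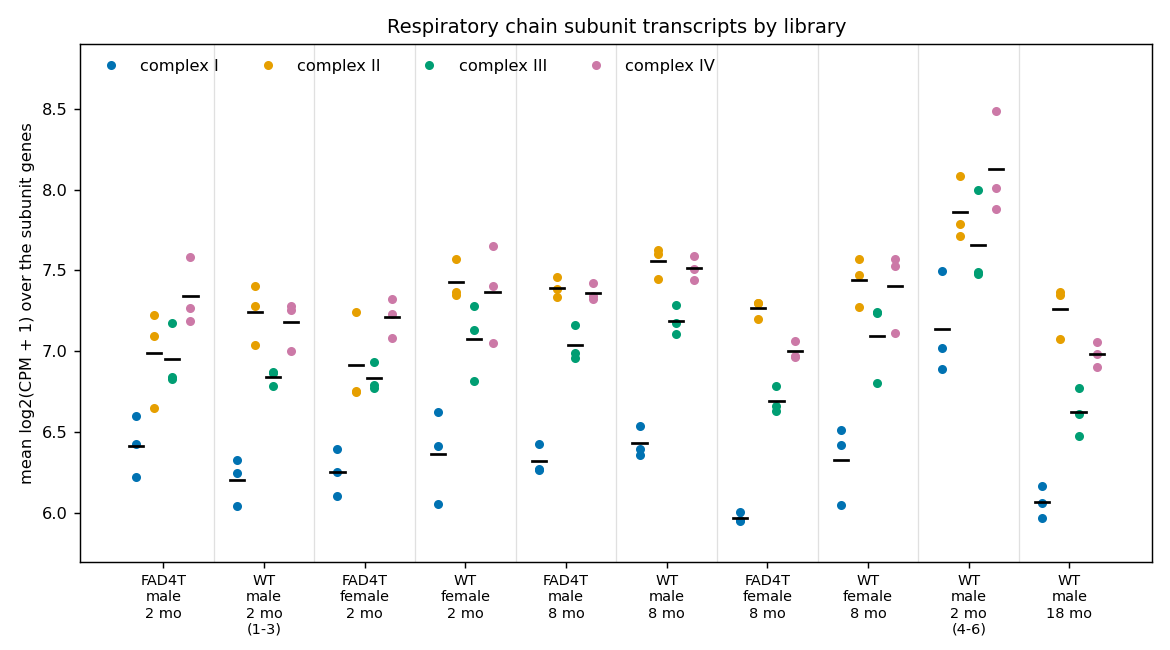
Each point is a library, the mean of log2(CPM + 1) over the genes of a complex, and each black bar is the mean of 3 libraries. Heights are to be read within a complex, since genes differ in length. Numbers 4 to 6 (2 mo) are above every other library in each complex, and the 18-month males lie near the FAD4T females of 8 months in complexes I, III and IV.

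Set against each other in a fit of all 30 libraries, a comparison added after the data were seen, 50 of 58 members were called higher in numbers 4 to 6 than in numbers 1 to 3 and 0 lower (edgeR), beside 10.2% of 18799 genes called higher and 11.5% lower. The median was 0.997 (range 0.05 to 1.55). In 52 members the groups were apart and higher in numbers 4 to 6, against 18.8% of all genes higher and 20% lower. Ndufs6 was at 42.0, 35.1 and 50.2 CPM in numbers 1 to 3 and 86.3, 99.7 and 162 CPM in numbers 4 to 6 (log2 1.45 ± 0.20 SE, adjusted p = 5.34e-05, edgeR). Uqcr10, a small subunit of complex III, was at 78.2, 63.3 and 79.3 against 151, 179 and 244 CPM (log2 1.38 ± 0.19 SE, adjusted p = 5.82e-05, edgeR). Ndufa7 and Sdhc were the next by p (log2 1.13 and 0.84). Skeletal muscle markers were also higher in numbers 4 to 6 (median 3.36, 1 of 11 called), as were the muscle isoforms Cox7a1, Cox8b and Cox6a2 (3 of 3 called, log2 3.27 to 3.84). Levels of the muscle list in numbers 1 to 3 were 5.99, 7.64 and 1.55. With the muscle level as a covariate the members' median was 0.78.

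The 18-month males against numbers 1 to 3, likewise added after the data were seen, gave 2 members called lower and 0 higher by edgeR, where 4.97% of all genes were called lower and 4.48% higher. The median was -0.15, with 47 members below 0, and the share of members called was below that of all genes. Groups were apart in 17 members lower and 2 higher at 18 months, against 15% and 14.7% of all genes. Ndufs4 was at 92.6, 69.7 and 88.5 CPM in numbers 1 to 3 against 54.6, 59.5 and 58.3 CPM (log2 -0.54 ± 0.13 SE, adjusted p = 0.0106, edgeR). Cox7a2, the ubiquitous isoform of subunit 7a, was at 133, 109 and 151 against 83.5, 87.4 and 87.0 CPM (log2 -0.61 ± 0.15 SE, adjusted p = 0.0121, edgeR). Leaving out 2-month male 1 or 3 or 18-month male 1 left 0 calls. In those fits 1.75%, 2.99% and 2.37% of all genes were called lower and 1.57%, 2.01% and 2.83% higher. The calls over all genes thus became fewer too. This comparison shares its 18-month libraries with that against numbers 4 to 6, where the same genes had log2 fold changes of -1.29 and -1.32.

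With all 6 males of 2 months as controls, 33 members were called lower at 18 months (median -0.75), beside 9.5% of all genes lower and 7.97% higher. Numbers 4 to 6 lay above every other library in the members' level, and numbers 1 to 3 lay within the range of the rest. Members took a mean of 1.04% of counts in numbers 4 to 6 and 0.635% in numbers 1 to 3. The other 2-month groups, which are FAD4T or female, had 0.702% to 0.769%. Why the sets differ was not tested.

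**Figure D3:**
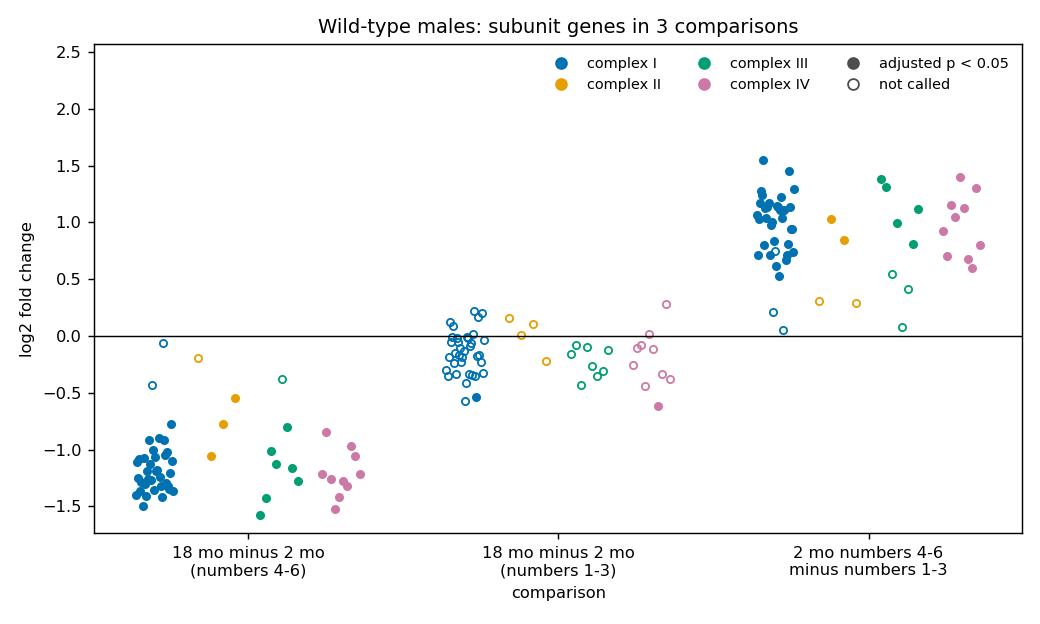
Each point is a member's log2 fold change, filled where adjusted p is under 0.05, by complex. In the comparison of 18 months with numbers 4 to 6 the points centre on -1.19 with 54 filled, against numbers 1 to 3 on -0.15 with 2 filled, and the right column, numbers 4 to 6 minus 1 to 3, centres on 0.997 with 50 filled. The columns share libraries.

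Gene length moved with the fold change in the comparison with numbers 4 to 6. From the shortest to the longest quartile of exon length, the median over all genes was -0.54, -0.15, 0.10 and 0.31. The members are short genes, with a median exon length of 1348.5 bases, and 43 of them lie in the shortest quartile, where the members' median was -1.24 and 36.2% of all genes were called lower. Ndufs1 is the longest member at 8086 bases. With each library's trend of level against length removed, an alternative added after the data were seen, 41 members were called lower, beside 12.7% of all genes, and the median was -0.63 with 57 of 58 below 0. Ndufs8 then had a log2 fold change of -0.54 (adjusted p = 0.00673, edgeR) and Cox6a1 of -0.76 (adjusted p = 0.00578, edgeR). Calls were lost for Sdhd, which turned to 0.04 (adjusted p = 0.887, edgeR), for Uqcrfs1 at -0.26 (adjusted p = 0.276, edgeR) and for Cox8a at -0.40 (adjusted p = 0.0528, edgeR), among others. Length and sample set move together here, and their parts were not tested further.

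**Figure D4:**
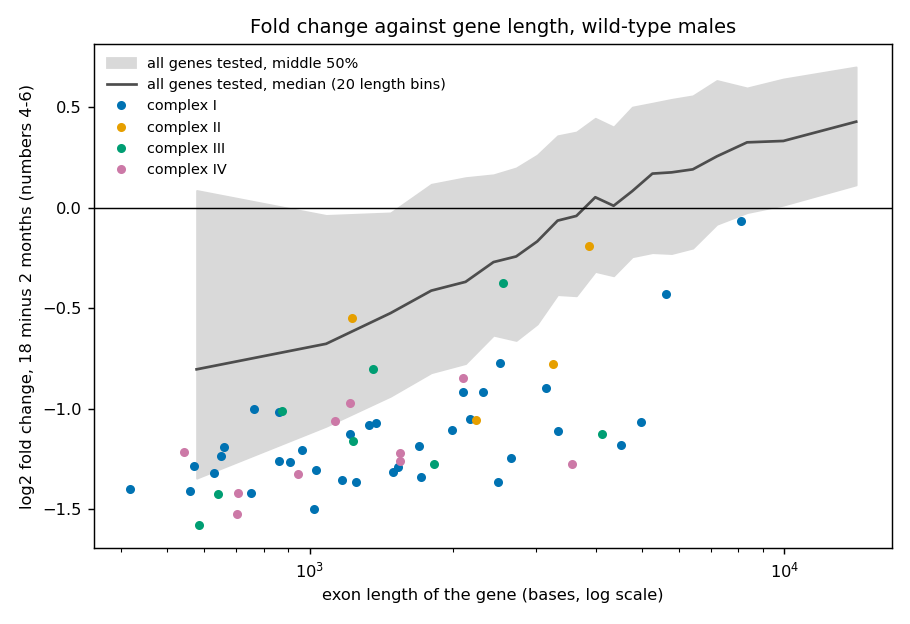
Log2 fold change, 18 months minus 2 months numbers 4 to 6, against exon length in bases on a log axis. The grey line is the median of all genes in 20 length bins and the band their middle 50%. The line climbs with length, and most members lie below it at their own length.

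FAD4T was compared with wild type within each sex and age. The call rule was passed by 0 members in all 4 comparisons, by edgeR and by DESeq2. Over all 18493 genes edgeR called 0%, 0%, 0% and, in females of 8 months, 0.0216% lower and 0% higher, so its calls were few. DESeq2 called 0.51% of all genes higher and 0.0434% lower in males of 2 months. Its shares were 0.713% and 0.907% in females of 2 months, 0% in males of 8 months, and 0.0217% and 0.39% in females of 8 months.

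In females of 8 months the log2 fold change was below 0 in 58 of 58 members, with a median of -0.38 (range -0.67 to -0.02) against -0.01 over all genes. Without adjustment, p was under 0.05 in 31 members, all lower, against 3.16% of all genes lower and 1.5% higher. In 34 members the groups did not overlap, all lower in FAD4T, against 7.28% of all genes lower and 5.75% higher. Medians were -0.38 in complex I, -0.21 in complex II, -0.46 in complex III and -0.43 in complex IV.

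Ndufs4 had the smallest p there. It was at 74.2, 76.3 and 66.7 CPM in FAD4T and 102, 108 and 84.2 CPM in wild type (log2 -0.43 ± 0.13 SE, adjusted p = 1, edgeR). Ndufa12, an accessory subunit, was at 48.9, 56.9 and 57.0 against 81.5, 94.1 and 62.7 CPM (log2 -0.54 ± 0.16 SE, adjusted p = 1, edgeR). Ndufs6 was at 33.5, 33.2 and 31.0 against 56.1, 55.4 and 35.0 CPM (log2 -0.58 ± 0.17 SE, adjusted p = 1, edgeR). In each, wild-type female 3 was the nearest to the FAD4T mice and the other two stood higher. That library also had the lowest muscle level of its group.

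Skeletal muscle markers moved with this difference. Their level was 1.53, 1.76 and 2.13 in the FAD4T females and 7.21, 8.17 and 5.17 in the wild-type females, a median log2 fold change of -7.27 over 11 genes, none of which was called, and in all 11 the groups were apart. With the muscle level as a covariate the members' median was -0.22, and with the length trend removed -0.26. The slope on the covariate was called in 0 of 58 members (median slope 0.03 log2 per unit). Over all 18493 genes it was called positive in 320 (1.73%) and negative in 3. At so low a share, 0 of 58 says little about the members.

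In males of 8 months the median was -0.11, with 54 members below 0, and p was under 0.05 before adjustment in 0, against 1.04% of all genes higher and 0.768% lower. Groups were apart in 7 members, all lower in FAD4T, against 5.46% of all genes lower and 5.27% higher. Ndufb11 was at 133, 115 and 120.4 CPM in FAD4T against 143, 144 and 139.8 CPM (log2 -0.19 ± 0.15 SE, adjusted p = 1, edgeR). Cox7a2 and Cox8a, the next by p of those 7, had log2 differences of -0.18 and -0.13 (adjusted p = 1, edgeR). Their standard errors were 0.15 and 0.13, about as large as the differences.

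In males of 2 months the median was 0.23, with 42 members above 0. Before adjustment p was under 0.05 in 10 members that were higher and 2 that were lower, against 8.91% and 5.58% of all genes. The groups overlapped in all 58 members, whereas 6.42% of all genes were apart and higher and 5.68% apart and lower. In females of 2 months the median was -0.16, with 21 members under 0.05 before adjustment, all lower, against 7.75% of all genes lower and 8.94% higher. There 6 members had groups apart, all lower in FAD4T, against 4.14% of all genes lower and 5.79% higher. Uqcrfs1 was at 93.3, 93.7 and 125 CPM against 136, 156 and 144 CPM (log2 -0.48 ± 0.15 SE, adjusted p = 0.183, edgeR). Uqcrc1 had a log2 difference of -0.47 (adjusted p = 0.236, edgeR). Without FAD4T female 3, edgeR called 12 members lower, beside 9.63% of all genes lower and 6.22% higher in the same fit. Both FAD4T females left in that fit hold thymocyte transcripts, whose part in these calls was not tested.

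Values of 4 members, chosen after they were seen, are given for the FAD4T libraries of 2 months with and without thymocyte transcripts. Sdhd was at 70.8 and 47.7 CPM in FAD4T males 2 and 3 and at 51.2 and 57.3 CPM in FAD4T females 1 and 2. In FAD4T male 1 and FAD4T female 3, whose thymocyte levels were 0.82 and 0.63, it was at 123 and 119 CPM. Cox5a and Uqcrc2 were lower in the same 4 libraries than in that pair: Cox5a was at 27.6 CPM and Uqcrc2 at 80.8 CPM in FAD4T male 3. Ndufa5, an accessory subunit of complex I, was on the other side, at 108 and 118 CPM in males 2 and 3 and 101 and 126 CPM in females 1 and 2, against 56.8 and 52.9 CPM in male 1 and female 3. The complex II median of the FAD4T difference was -0.26 in males and -0.51 in females, while that of complex I was 0.24 and -0.09. Leaving out the 5 libraries with thymocyte levels over 3 leaves 1 FAD4T mouse of each sex at 2 months, male 1 and female 3, against 3 wild-type mice, so these values have no replicate in the FAD4T arm. The median over all members was then 0.03 in males and -0.24 in females. No test of the thymocyte level against the members was made.

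**Figure D5:**
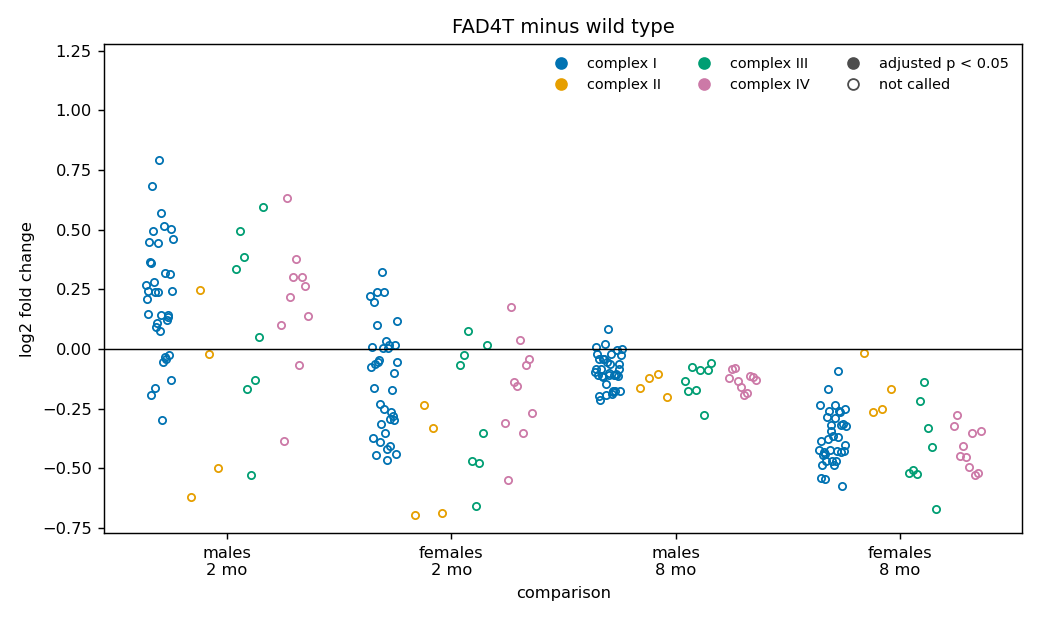
Each point is a member's log2 fold change, FAD4T minus wild type, by complex, and open points were not called. All points are open. Females of 8 months have 58 of 58 points below 0, while at 2 months the points spread on both sides of it and complex II sits lowest.

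The difference of the FAD4T effect between sexes and ages was tested as an interaction. Of 58 members 0 were called in each of the 4 tests by edgeR and by DESeq2, as were 0% of all genes by edgeR. DESeq2 called at most 0.146% of all genes in either direction of any of these tests. Members with p under 0.05 before adjustment numbered 6 for males minus females at 2 months (median 0.34), 1 for the same at 8 months (0.28), 2 for 8 minus 2 months in males (-0.29) and 3 in females (-0.24). The shares of all genes there were 2.24% higher and 1.78% lower, 1.66% and 0.335%, 2.15% and 2.83%, and 3.59% and 4.63%. The negative values in females of 8 months are thus not shown to differ from those elsewhere.

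Between 2 and 8 months, wild-type males (numbers 1 to 3 at 2 months) had 58 of 58 members above 0, with a median of 0.25 (range 0.04 to 0.59). By edgeR and DESeq2 0 were called, beside 0.422% of all genes called higher and 0.27% lower by edgeR, and 1.66% and 0.954% by DESeq2. Before adjustment p was under 0.05 in 14, all higher, against 6.15% of all genes higher and 5.52% lower. In 26 members every 8-month library was above every 2-month one, against 11.6% of all genes higher and 9.52% lower. Uqcr10 was at 114, 107 and 109.7 CPM at 8 months against 78.2, 63.3 and 79.3 CPM (log2 0.59 ± 0.18 SE, adjusted p = 0.144, edgeR). Ndufa4 and Ndufb9 had log2 differences of 0.55 and 0.45 (adjusted p = 0.164 and 0.229, edgeR). The 8-month males, at member levels of 6.90, 6.72 and 6.78, were above numbers 1 to 3 and below numbers 4 to 6. In wild-type females the median was 0.00, and 29 members lay on each side of 0. Called by edgeR or DESeq2 were 0, beside 0.205% of genes higher and 0.0487% lower by edgeR, and 0.954% and 0.493% by DESeq2. There p was under 0.05 before adjustment in 0 members, against 4.17% of all genes higher and 4.37% lower. The groups overlapped in all 58, while 5.83% of genes were apart and higher and 6.34% apart and lower.

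FAD4T females were the group of this age comparison with calls: 4 members were lower at 8 than at 2 months and 0 higher, beside 5.98% of all genes lower and 4.15% higher, so the members' share was near that of all genes. Groups were apart in 21 members lower and 4 higher at 8 months, against 15.4% and 15.3% of all genes. Ndufb2 was at 9.90, 10.3 and 10.6 CPM at 8 months and 17.9, 21.6 and 13.3 CPM at 2 months (log2 -0.75 ± 0.20 SE, adjusted p = 0.0313, edgeR). Ndufb3, another small membrane subunit, was at 55.1, 60.7 and 57.7 against 81.8, 93.4 and 76.9 CPM (log2 -0.51 ± 0.16 SE, adjusted p = 0.0448, edgeR). Cox7b and Ndufa5 fell by 0.59 and 1.03 (adjusted p = 0.0477 and 0.0484, edgeR). FAD4T females 1 and 2 of 2 months, the pair with thymocyte transcripts, were the high libraries for Ndufb2 and Ndufa5. With the muscle level as a covariate 0 members were called, beside 0.6% of all genes higher and 0.438% lower. Leaving out single libraries gave 0 to 23 calls. Without FAD4T female 3 of 2 months there were 23, 7 higher and 16 lower, beside 18.8% of all genes higher and 16.6% lower. The FAD4T females of 2 months left there were the pair with thymocyte transcripts, whose part was not tested. Without either of females 1 and 2 of 2 months or any of the 3 of 8 months, 0 members were called. In those fits at most 0.957% of all genes were called higher and 1.03% lower.

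In FAD4T males 0 members were called by edgeR and 2, both higher, by DESeq2, beside 0.865% of genes higher and 0.708% lower by edgeR and 4.23% and 5.07% by DESeq2. Before adjustment p was under 0.05 in 6 members higher and 1 lower, against 13.7% and 14.6% of all genes. Groups were apart in 8 members higher and 1 lower, against 17.4% and 15.2% of all genes. Cox5a, a subunit on the matrix side of complex IV, had the smallest p, at 97.0, 81.5 and 75.8 CPM at 8 months and 65.9, 54.2 and 27.6 CPM at 2 months (log2 0.81 ± 0.24 SE, adjusted p = 0.0674, edgeR). Ndufa4 and Sdha followed (log2 0.53 and 0.71, adjusted p = 0.0845 and 0.0993, edgeR). FAD4T male 1 of 2 months was the highest of its group for these genes. Without it 8 members were called, 6 higher and 2 lower, beside 11.2% of all genes higher and 9.51% lower, so the members' share was not above that of all genes. Both FAD4T males of 2 months left in that fit hold thymocyte transcripts, whose part was not tested.

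Males and females of wild type were compared at each age. By edgeR and DESeq2 0 members were called. Over all genes edgeR called 0.0379% in each direction at 2 months, and 0.0919% higher and 0.178% lower in males at 8 months. DESeq2 called 0.19% higher and 1.28% lower in males at 2 months, and 0.173% and 0.347% at 8 months. Before adjustment p was under 0.05 in 2 members at 2 months, both lower in males, against 4.42% of all genes lower and 2.27% higher, and in 0 at 8 months, against 3.02% lower and 2.07% higher. The median, male minus female, was -0.20 at 2 months and 0.08 at 8 months. Groups were apart in 3 members lower in males at 2 months (4.57% of all genes lower, 3.43% higher) and in 3 higher in males at 8 months (6.32% higher, 6.02% lower). Uqcrfs1 at 2 months was at 111, 129 and 122 CPM in males and 136, 156 and 144 CPM in females, without overlap (log2 -0.27 ± 0.15 SE, adjusted p = 0.902, edgeR), and at 8 months its groups overlapped (log2 0.02 ± 0.15 SE, adjusted p = 1, edgeR).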

How the data were processed

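For each of 30 libraries a table of whole-number counts was deposited. The authors made these counts of read pairs, per the file headers, with featureCounts 1.6.0 over exons grouped by gene on Ensembl release 88 of GRCm38, with no strand option, from alignments named for STAR. Per the submitters' processing notes, the build was GRCm39 and the tools were edgeR, DESeq2, StringTie 1.3.4d, HISAT2 2.0.4 and cutadapt 1.9, which differs from the headers. Without strand, overlapping genes are uncertain, and so are genes with near-identical copies, which many subunit genes have as processed pseudogenes.

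Symbols were matched for 50376 of 50686 identifiers, and 0 pairs of libraries were identical. Totals were 14083958 to 20256049 counts per library. Groups came from titles. Tests used R 4.3.3 and edgeR 4.0.16 on the deposited counts: TMM, filterByExpr with a minimum count of 10, robust glmQLFit, glmQLFTest and Benjamini-Hochberg adjustment over all genes at 0.05, with a prior count of 0.125. One model held the 24 libraries of FAD4T and matched wild-type mice (18493 genes, 16 residual degrees of freedom) and another the 6 of the ageing set (16283 genes, 4). Comparisons between the sets used a fit of all 30 (18799 genes). A standard error is the log2 fold change divided by the square root of F. Levels of gene lists use a pseudocount of 1. Values per library are scaled over all 30, and means ± SD within the fit of their comparison.

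Members and lists were chosen with earlier results of these data known. Named are the called members with the smallest p (up to 4 per comparison and direction), or, with none called, up to 3 without overlap between groups, besides catalytic cores, isoform pairs and extremes of level or range. Other genes named were chosen after their values were seen.

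Alternatives were DESeq2 1.42.0, its size factors, no filter, a fit of just the groups compared, a block for the title number, single libraries left out, 5 libraries with thymocyte transcripts left out, muscle level as a covariate and, added after seeing the data, removal of length and GC trends and other controls. Same-numbered FAD4T and wild-type libraries deviated together in males of 8 months (correlations 0.41, 0.40 and 0.51). In females of 8 months they did so less evenly (0.56, 0.29 and 0.04). At 2 months the correlations were negative in males and mixed in females. The labels do not say whether same-numbered mice are pairs. The code was tested on simulated data. The values of 1 member are not reported here by name, and it is kept in all counts and medians.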

Additional observations from a re-analysis of the deposited data

How the results depend on the processing

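Counts of called members stayed within 1.5 times the value given in 235 recomputed counts and moved further in 22. Most comparisons had 0 calls to begin with, and a 0 that stayed 0 is among the 235. That number is therefore no measure of stability. At 18 against 2 months, 34 members were called lower with length and GC trends removed together (10.7% of all genes). With all 6 males of 2 months as controls there were 33 (9.5% of all genes). Single libraries left out gave 51 to 54 (10.2% to 17.1% of all genes). Ndufs1 changed sign there, to 0.0281 with the muscle covariate, 0.10 without 2-month male 6 and 0.13 without 18-month male 1 (range -0.194 to 0.13 with single libraries left out), and the cause was not tested. Against numbers 1 to 3, 1 member was called with the length trend removed, beside 4.79% of all genes higher and 4.96% lower. With single libraries left out, 0 to 2 were called there. For FAD4T females of 2 months against wild type, leaving out single libraries gave 0 to 12 calls. Between 2 and 8 months, the compared groups alone gave 1 call in wild-type males, beside 2.11% of all genes higher and 0.658% lower. FAD4T males had 2 calls by DESeq2 and 0 to 8 with single libraries left out. FAD4T females had 11 calls by DESeq2 (10 lower, 1 higher, beside 10.6% and 9.11% of all genes) and 1 without the filter (1.66% of all genes lower, 0.867% higher). They had 0 with the compared groups alone (0.0123% lower, 0.368% higher) and 0 with the muscle covariate (0.438% lower, 0.6% higher). Single libraries left out gave 0 to 23. Without the 5 thymocyte libraries the count was 0, but the 2-month arm is then 1 mouse, assumed to vary like the other groups, and 0% of all genes were called, so it says nothing about stability. With the title number as a replicate block the count for FAD4T females was 1, beside 3.26% of all genes higher and 3.9% lower. The block moved no other count of called members by more than 1.5 times. The labels do not say that the numbers pair mice. Same-numbered libraries deviated together most evenly in males of 8 months, where 0 members were called with or without the block. No paired analysis was possible for 18 against 2 months because the numbers 4 to 6 and 1 to 3 are not shared. Relative counting error is largest for Ndufb2, the member with the fewest counts, and its part in the spread between mice was not tested.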
